A study of Homo sapiens with 11 samples.

Results

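Serine synthesis and one-carbon metabolism were examined in SK-MEL103, an established human melanoma cell line grown in culture, through 10 genes listed by name: PHGDH, PSAT1, PSPH, SHMT1, SHMT2, MTHFD1, MTHFD2, MTHFD1L, ALDH1L2 and ASNS. They are 10 of the 61566 genes to which the deposited transcript tables could be joined, listed by their place in the pathway. The list was chosen with earlier results of these data known, so counts of calls among the 10 genes are a description. RNA was taken on day 6 from cells kept with the solvent DMSO (4 samples), with 0.25 µM etoposide (4 samples) or with 0.5 µM tozasertib (3 samples, replicates 1, 2 and 4). Medium and compound were renewed on day 3 in every group. Etoposide traps topoisomerase II on DNA and leaves strand breaks, and tozasertib inhibits the Aurora kinases that build and separate the mitotic spindle. The labels call the DMSO cells non-senescent, and the comparisons ask how drug-treated cells that have entered senescence differ from dividing ones. All samples come from 1 cell line, and no label says that replicates were separate cultures, so the p-values cover only variation among the samples at hand, part or all of which may be technical.

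Cells build serine from the glycolytic intermediate phosphoglycerate in a short chain of reactions carried out by PHGDH, PSAT1 and PSPH. The SHMT enzymes then split serine into glycine and a carbon unit carried by tetrahydrofolate, and the MTHFD enzymes pass that unit between oxidation states so that it can be used to make purines, thymidylate and methyl groups. The folate reactions run in parallel in the cytosol and the mitochondrion, with formate travelling between the compartments. Many of these genes, and ASNS, the enzyme that makes asparagine, are known targets of the transcription factor ATF4, and the pathway is known to be high in many dividing tumour cells, melanoma lines with extra copies of PHGDH among them.

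Total reads per sample ran from 27882689 to 56534763. Levels of 1 gene are compared between samples in CPM, reads divided by a library size that is scaled by the trimmed mean of M-values, and levels of different genes are compared in TPM, the authors' values per transcript length, summed over the transcripts of a gene. DMSO replicate 1 stood apart: its counts differed from those of the other DMSO samples by 34.4 to 77.0 times sampling noise (chi-square per degree of freedom), against 7.10 to 23.8 among the other 3. The share of reads from mitochondrial genes was 2.08 to 3.74% in DMSO, 3.45 to 5.29% in etoposide and 3.79 to 4.77% in tozasertib samples. Of 8 melanocyte markers, SOX10 was read at 513 ± 26.3, 323 ± 8.89 and 379 ± 3.3 CPM (SD) in DMSO, etoposide and tozasertib samples, and MITF at 7.67 ± 0.89, 9.43 ± 0.69 and 9.24 ± 0.26 CPM. No read fell on MLANA in any sample, and TYR, TYRP1 and DCT had group means of 0.316 CPM or less. PMEL was at 0.325 ± 0.19 CPM in DMSO and 3.85 ± 0.52 CPM with tozasertib, and S100B at 1.17 ± 0.35 and 3.3 ± 0.38 CPM, so the pigment genes MLANA, TYR, TYRP1, DCT and PMEL had DMSO means of 0.325 CPM or less. Of the 4 tested markers, 2 were higher and 1 lower with etoposide, and 3 higher and 1 lower with tozasertib, and the sum of the list lay at 490 to 551 CPM in DMSO, 329 to 348 CPM with etoposide and 391.9 to 399 CPM with tozasertib.

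Of the 10 genes, 9 were read above the low-count cutoff (0.318 CPM) in at least 3 samples of every group, and 7 of these 9 were lower with either drug than with DMSO. The 7 were PHGDH, PSAT1, SHMT1, SHMT2, MTHFD1, MTHFD2 and ASNS, and PSPH and MTHFD1L did not pass the test. Calls rest on edgeR's quasi-likelihood test with a Benjamini-Hochberg adjusted p under 0.05 over the 17039 genes tested, of which 58.3% were called with etoposide (30.7% lower and 27.7% higher). With tozasertib 59.3% of all genes were called (29.4% lower and 29.9% higher). In the same 7 genes the drug samples did not overlap the DMSO samples in CPM. Counted in either direction, this held for 51.2% of all genes with etoposide and 59.8% with tozasertib. The median log2 fold change of the 9 genes was -0.79 with etoposide and -0.97 with tozasertib, beside -0.01 and 0.02 over all genes tested. A fall of at least 2-fold was called for 3 of the 9 genes in each comparison (PHGDH, PSAT1 and SHMT1), against 7.62% of all genes with etoposide and 7.26% with tozasertib. The 2 drug groups were set against the same DMSO samples, so their agreement is not independent. Without DMSO replicate 1, the same 7 genes were called lower in both comparisons.

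**Figure D1:**
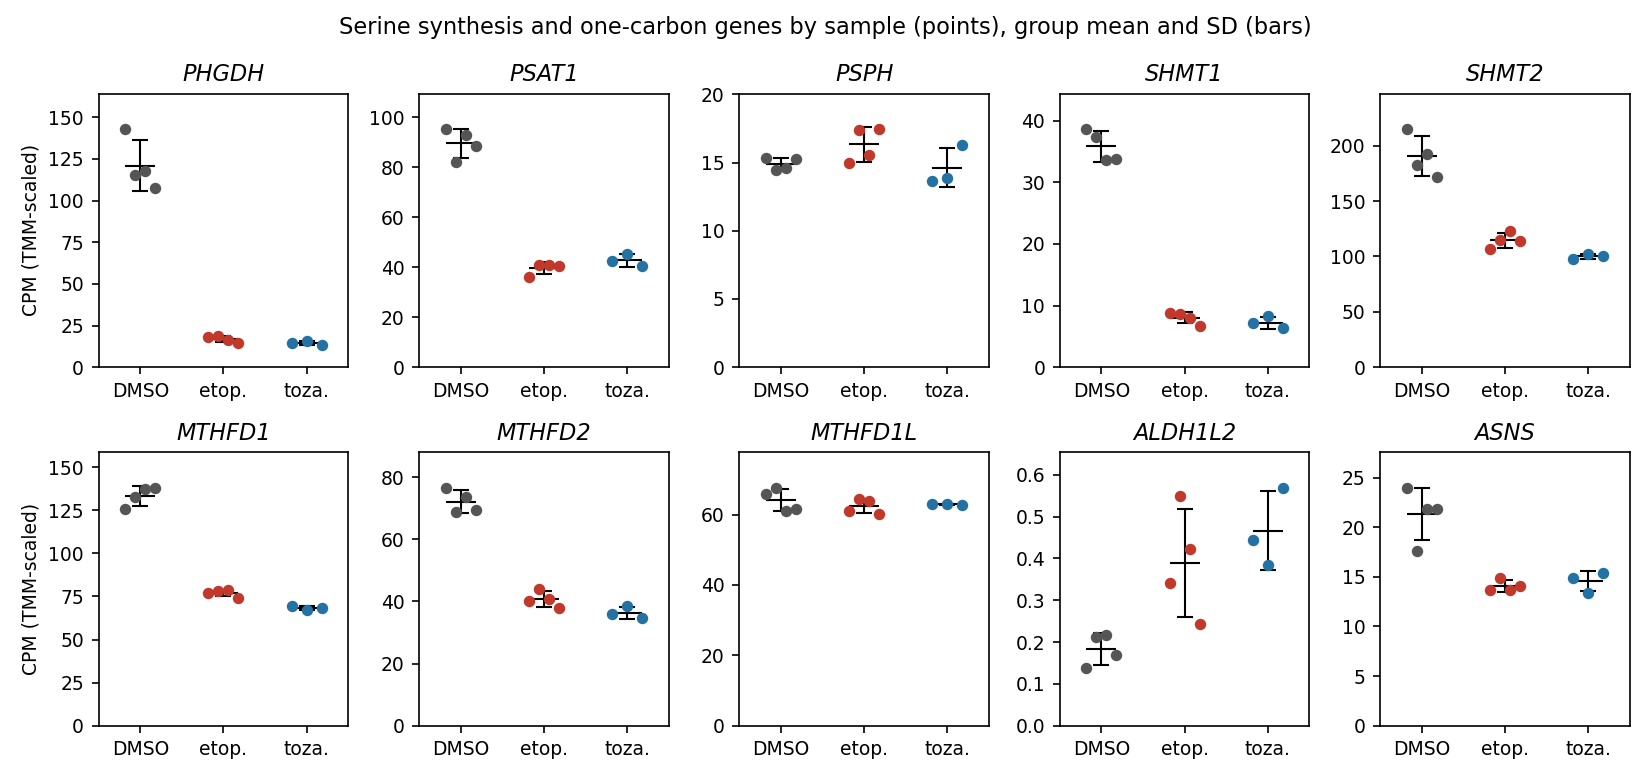
CPM (vertical axis, linear from 0, a separate scale for each gene) of the 10 genes in each of the 4 DMSO, 4 etoposide and 3 tozasertib samples (points), with the group mean and SD (black bars). The drug samples of PHGDH lie between 13.5 and 19 CPM and its DMSO samples between 107 and 143 CPM, whereas the 3 groups of PSPH and MTHFD1L overlap.

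PHGDH (ENSG00000092621.13, chr1:119648411-119744218, plus strand, GRCh38), which commits phosphoglycerate to serine, showed the largest fall of the 10 genes. It was read at 143, 115, 118 and 107 CPM in DMSO replicates 1 to 4, at 18.1, 19, 16.2 and 14.6 CPM in the etoposide samples, and at 14.3, 15.9 and 13.5 CPM in the tozasertib samples. Every drug sample was thus far below every DMSO sample, and the drug groups overlapped each other. PHGDH was 7.11-fold lower with etoposide (log2 fold change -2.83, SE 0.11, edgeR adjusted p = 1.64e-10) and 8.30-fold lower with tozasertib (-3.05, SE 0.12, adjusted p = 3.07e-10). Counted from the lowest log2 fold change, PHGDH ranked 82 of 17039 genes with etoposide and 84 with tozasertib. DMSO replicate 1 was the highest of the 4 in CPM but the lowest in TPM (93.0 TPM against 96.8 to 115 TPM in the others), and without it the log2 fold changes were -2.74 and -2.97. With counts scaled by transcript length they were -2.52 and -2.92. In bulk samples, fewer cells of a type and less RNA per cell cannot be told apart.

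PSAT1 (ENSG00000135069.14, chr9:78297125-78330093, plus strand) moves an amino group from glutamate to the product of PHGDH. Its DMSO samples held 95.3, 82.0, 92.9 and 88.7 CPM, the etoposide samples 36.2, 41.0, 41.0 and 40.5 CPM, and the tozasertib samples 42.7, 45.2 and 40.3 CPM. PSAT1 fell 2.26-fold with etoposide (log2 fold change -1.18, SE 0.07, edgeR adjusted p = 7.48e-09) and 2.10-fold with tozasertib (-1.07, SE 0.07, adjusted p = 4.29e-08), a smaller change than that of PHGDH. PSPH (ENSG00000146733.14, chr7:56011051-56051604, minus strand), the phosphatase that releases serine in the last step, did not follow them. It was read at 15.3, 14.4, 14.6 and 15.3 CPM in DMSO, at 15, 17.4, 15.6 and 17.4 CPM with etoposide, and at 13.7, 13.9 and 16.3 CPM with tozasertib. The 3 groups overlapped, and the log2 fold changes of 0.13 (95% interval -0.05 to 0.32, edgeR adjusted p = 0.181) and -0.03 (-0.23 to 0.17, adjusted p = 0.788) hold changes well short of those of PHGDH and PSAT1. Counting protein-coding transcripts alone raised the PSPH value with etoposide to 0.32 (adjusted p = 0.0084). Summed over the 3 serine synthesis genes, the level lay between 211 and 253 CPM in the DMSO samples, between 69.2 and 77.4 CPM in the etoposide samples and between 70.1 and 75.0 CPM in the tozasertib samples.

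The cytosolic folate enzymes both fell. SHMT1 (ENSG00000176974.21, chr17:18327860-18363563, minus strand), the cytosolic serine hydroxymethyltransferase, was read at 38.6, 37.4, 33.6 and 33.8 CPM in DMSO, at 8.76, 8.59, 7.92 and 6.76 CPM with etoposide and at 7.18, 8.24 and 6.29 CPM with tozasertib. The gap between DMSO and drug samples was wide relative to the spread within groups, with a fall of 4.46-fold with etoposide (log2 fold change -2.16, SE 0.10, edgeR adjusted p = 1.40e-09) and 4.97-fold with tozasertib (-2.31, SE 0.11, adjusted p = 2.10e-09). MTHFD1 (ENSG00000100714.18, chr14:64388031-64463457, plus strand), which carries the cytosolic dehydrogenase, cyclohydrolase and formate-joining activities in a single protein, was read at 126, 133, 137 and 138 CPM in DMSO. It was read at 77.1, 77.9, 78.5 and 74.2 CPM with etoposide and at 69.5, 67.1 and 68.3 CPM with tozasertib, so that the 3 groups did not overlap. Its fall was 1.73-fold with etoposide (log2 fold change -0.79, SE 0.05, edgeR adjusted p = 1.67e-08) and 1.95-fold with tozasertib (-0.97, SE 0.05, adjusted p = 6.81e-09).

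The mitochondrial enzymes were less uniform. SHMT2 (ENSG00000182199.11, chr12:57229573-57234935, plus strand), the mitochondrial counterpart of SHMT1, was read at 215, 182, 193 and 172 CPM in DMSO, at 106, 115, 123 and 114 CPM with etoposide and at 98, 102 and 100.4 CPM with tozasertib. MTHFD2 (ENSG00000065911.13, chr2:74186172-74217565, plus strand), the mitochondrial dehydrogenase and cyclohydrolase that is high in embryonic and tumour cells, was read at 76.7, 68.8, 73.5 and 69.5 CPM in DMSO, at 40.3, 44, 40.7 and 37.9 CPM with etoposide and at 35.9, 38.5 and 34.8 CPM with tozasertib. For both genes the DMSO samples lay above all drug samples. SHMT2 fell 1.66-fold with etoposide (log2 fold change -0.73, SE 0.07, edgeR adjusted p = 9.58e-07) and 1.9-fold with tozasertib (-0.93, SE 0.08, adjusted p = 2.75e-07). MTHFD2 fell 1.77-fold (-0.82, SE 0.06, edgeR adjusted p = 1.22e-07) and 1.98-fold (-0.99, SE 0.07, adjusted p = 5.65e-08).

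MTHFD1L (ENSG00000120254.16, chr6:150865679-151101887, plus strand), which releases formate from the mitochondrial folate pool, stayed near its DMSO level. It was read at 65.9, 67.6, 61.1 and 61.7 CPM in DMSO, at 61.1, 64.4, 63.8 and 60.2 CPM with etoposide and at 63.0, 62.9 and 62.7 CPM with tozasertib. The groups overlapped, and the 95% intervals of the log2 fold change, -0.16 to 0.08 with etoposide (edgeR adjusted p = 0.551) and -0.16 to 0.10 with tozasertib (adjusted p = 0.701), leave room for only small changes. ALDH1L2 (ENSG00000136010.14, chr12:105019784-105107643, minus strand), which burns formyl-tetrahydrofolate to CO2 and makes NADPH in the mitochondrion, was barely read: 4, 6, 7 and 5 reads in DMSO, 14, 17, 15 and 7 reads with etoposide and 26, 11 and 21 reads with tozasertib. It reached the cutoff in 0 of 4 DMSO samples, 3 of 4 etoposide samples and 3 of 3 tozasertib samples, so it entered the test only through the drug groups. Its log2 fold changes of 1.06 (SE 0.36) and 1.32 (SE 0.37) are given as a description. The call was lost in 5 alternative settings with etoposide (the lowest value was 0.37, with length-scaled counts) and in 1 with tozasertib. With only the etoposide and DMSO samples fitted, ALDH1L2 was not among the genes tested. Most of its TPM was placed on ALDH1L2-204, a transcript without an annotated coding sequence.

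**Figure D2:**
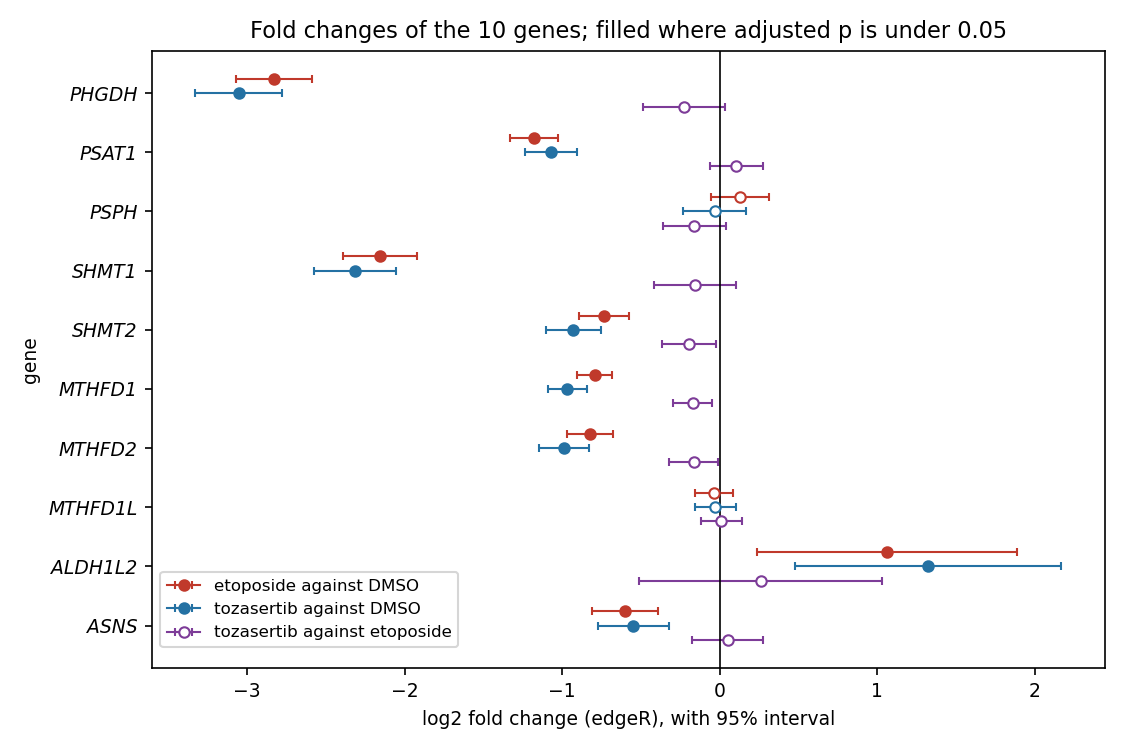
Log2 fold change (horizontal axis) of the 10 genes in 3 comparisons, with 95% intervals (lines), filled where the adjusted p was under 0.05. PHGDH lies at -2.83 and -3.05 against DMSO, MTHFD1L and PSPH lie at 0 within their intervals, no gene is filled for tozasertib against etoposide, and the points of ALDH1L2 rest on 4 to 26 reads per sample.

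ASNS (ENSG00000070669.17, chr7:97851677-97872542, minus strand), which makes asparagine from aspartate and glutamine and stands outside the folate pathway, also fell. It was read at 24, 17.7, 21.8 and 21.9 CPM in DMSO, at 13.7, 14.9, 13.7 and 14 CPM with etoposide and at 14.9, 13.4 and 15.4 CPM with tozasertib, so its lowest DMSO sample was still above the highest drug sample. The fall was 1.52-fold with etoposide (log2 fold change -0.60, SE 0.09, edgeR adjusted p = 7.92e-05) and 1.46-fold with tozasertib (-0.55, SE 0.10, adjusted p = 3.34e-04).

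Per length, the order of the genes changed with treatment. In DMSO the levels were 142 ± 15 TPM for SHMT2 (SD, n = 4), 104 ± 11.1 TPM for PHGDH, 74.1 ± 7.80 TPM for PSAT1, 69.1 ± 6.29 TPM for MTHFD2, 66.1 ± 3.25 TPM for MTHFD1, 31.9 ± 1.51 TPM for MTHFD1L, 23.8 ± 1.35 TPM for SHMT1, 21.3 ± 2.52 TPM for ASNS and 16.8 ± 2.37 TPM for PSPH. PSAT1, MTHFD2 and MTHFD1 overlapped in that order, as did SHMT1 with ASNS and ASNS with PSPH. With etoposide SHMT2 was still first at 104 ± 4.54 TPM, but PHGDH, at 20.3 ± 1.62 TPM, was level with PSPH at 20.6 ± 2.36 TPM, and SHMT1 was the lowest of the 9 genes at 6.48 ± 0.98 TPM. With tozasertib PHGDH stood at 16.4 ± 2.14 TPM (n = 3), beside 18.8 ± 2.38 TPM for PSPH and 98.6 ± 2.13 TPM for SHMT2. The sum over the 10 genes lay between 489 and 596 TPM in the DMSO samples, between 317 and 336 TPM with etoposide and between 312 and 324 TPM with tozasertib.

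The balance between paired enzymes was followed as a ratio of reads within each sample, which does not depend on the scaling between samples. Each of 9 differences was tested with an exact two-sided permutation test over samples, whose smallest possible p is 0.0286 with 4 against 4 or 4 against 3 samples. SHMT2 had 5.57, 4.89, 5.73 and 5.09 reads for each SHMT1 read in DMSO, 12.2, 13.4, 15.5 and 16.8 with etoposide and 13.7, 12.4 and 15.9 with tozasertib, a shift of the remaining transcripts towards the mitochondrial gene. The log2 ratio rose from 2.41 ± 0.11 to 3.84 ± 0.21 and 3.8 ± 0.18 (exact p = 0.0286, adjusted p = 0.0321 for each drug). MTHFD1L to MTHFD1, the mitochondrial and cytosolic formate enzymes, had a log2 ratio of -1.06 ± 0.12 in DMSO that rose to -0.30 ± 0.03 (etoposide) and -0.12 ± 0.02 (tozasertib) (exact p = 0.0286, adjusted p = 0.0321 for each drug against DMSO).

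MTHFD2 to MTHFD2L compares isozymes that share the mitochondrion, and MTHFD2L is the form known from adult tissues. It had a log2 ratio of 2.54 ± 0.11 in DMSO, 2.15 ± 0.08 with etoposide and 1.58 ± 0.03 with tozasertib, lower with each drug (exact p = 0.0286, adjusted p = 0.0321) and with no overlap between any of the groups. MTHFD2L itself was called lower with etoposide (log2 fold change -0.44, SE 0.09, edgeR adjusted p = 6.41e-04) and was at -0.04 (SE 0.09, adjusted p = 0.73) with tozasertib. Between the drugs, the SHMT2 to SHMT1 ratio differed by -0.04 (exact p = 0.829), whereas MTHFD1L to MTHFD1 was 0.18 higher and MTHFD2 to MTHFD2L 0.57 lower with tozasertib (exact p = 0.0286, adjusted p = 0.0321 for each). In TPM these last 2 differences became 0.14 and -0.48 and no longer passed (adjusted p = 0.161 and 0.110).

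**Figure D3:**
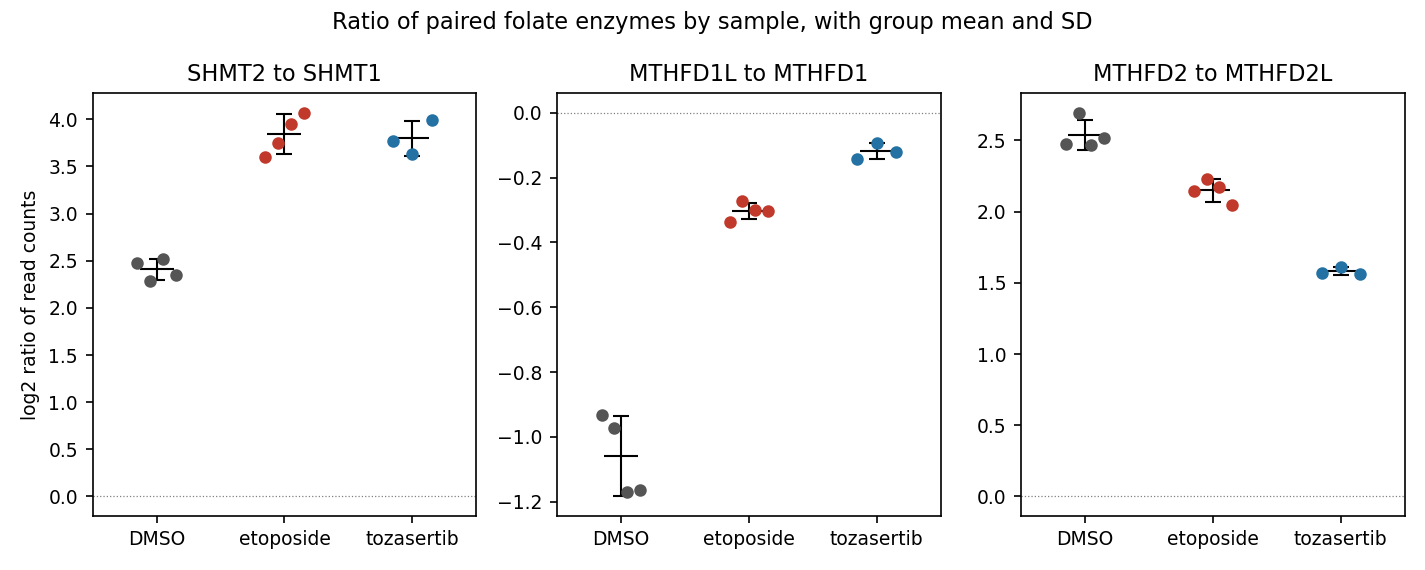
Log2 ratio of read counts (vertical axis, a separate scale for each pair) of SHMT2 to SHMT1, MTHFD1L to MTHFD1 and MTHFD2 to MTHFD2L in each sample (points), with group mean and SD (black bars). The drug samples lie above all DMSO samples in the first pair of enzymes and in the next one, and below them for MTHFD2 to MTHFD2L.

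Between the drugs, 0 of the 9 genes passed edgeR's test, against 11.1% of all genes (5.67% higher and 5.45% lower with tozasertib). Over all genes, edgeR called 966 higher and 929 lower, and DESeq2 1021 and 1488. The drug samples of 2 of the 9 genes, SHMT2 and MTHFD1, did not overlap in CPM, against 31% of all genes. At an unadjusted p under 0.05, SHMT2, MTHFD1 and MTHFD2 were lower with tozasertib. The share of all genes at that unadjusted threshold was not counted, so this is given as a description. DESeq2 called MTHFD1 (log2 fold change -0.20, adjusted p = 0.0025). The log2 differences by edgeR were -0.19 for SHMT2 (95% interval -0.37 to -0.02, edgeR adjusted p = 0.127), -0.17 for MTHFD1 (-0.29 to -0.05, adjusted p = 0.0564) and -0.16 for MTHFD2 (-0.32 to -0.01, adjusted p = 0.154). PHGDH was at -0.22 (-0.49 to 0.04, adjusted p = 0.25) and PSAT1 at 0.11 (-0.06 to 0.27, adjusted p = 0.396). MTHFD1L had the narrowest interval around 0 (-0.12 to 0.14). Without DMSO replicate 1, SHMT2 (adjusted p = 0.0263) and MTHFD1 (adjusted p = 0.0101) were called lower with tozasertib. A missed threshold here does not show that the drugs act alike on these genes.

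Transcript shares were described without a test, as the tables divide reads between overlapping transcripts by estimation. PHGDH-208, the MANE Select transcript, held 57.3 to 81.7% of the PHGDH TPM in the DMSO samples, 42.8 to 51.0% in the etoposide samples and 45.5 to 62.5% in the tozasertib samples, and its mean level went from 70.1 to 9.49 and 8.57 TPM. PHGDH-207, a retained-intron transcript, held 18.2 to 26.6% in the etoposide samples, above the 0 to 15% of the DMSO samples. Its tozasertib range, 0 to 24.2%, overlapped that of DMSO. SHMT1-201 went from 68.3 to 77.3% of SHMT1 in DMSO to 54.6 to 62.3% and 47.8 to 52.6%, and SHMT2-201 from 49.2 to 61.0% of SHMT2 to 46.7 to 53.9% and 33.3 to 40.3%. For PHGDH with etoposide, SHMT1 with both drugs and SHMT2 with tozasertib, the share of the main coding transcript lay below all DMSO samples. It overlapped DMSO for PHGDH with tozasertib and for SHMT2 with etoposide. The MANE Select transcripts MTHFD1-220, MTHFD2-201, MTHFD1L-203 and PSPH-201 overlapped DMSO with both drugs. The share of PSAT1-202 was above DMSO with tozasertib (at least 98.6% against at most 98.2%) and overlapped it with etoposide. How often such shares separate over all genes was not counted. PSAT1-202 made up at least 97.2% of PSAT1 in every sample. Reads on named pseudogenes were few, with at most 3 on PSAT1P1, 2 on PSPHP1, 3 on MTHFD1P1, 5 on MTHFD2P1 and 1 on ASNSP3 in any sample, and at most 10.4 estimated reads, 1.29% of the pair, on ASNSP1. Adding them to their parent genes changed no call.

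**Figure D4:**
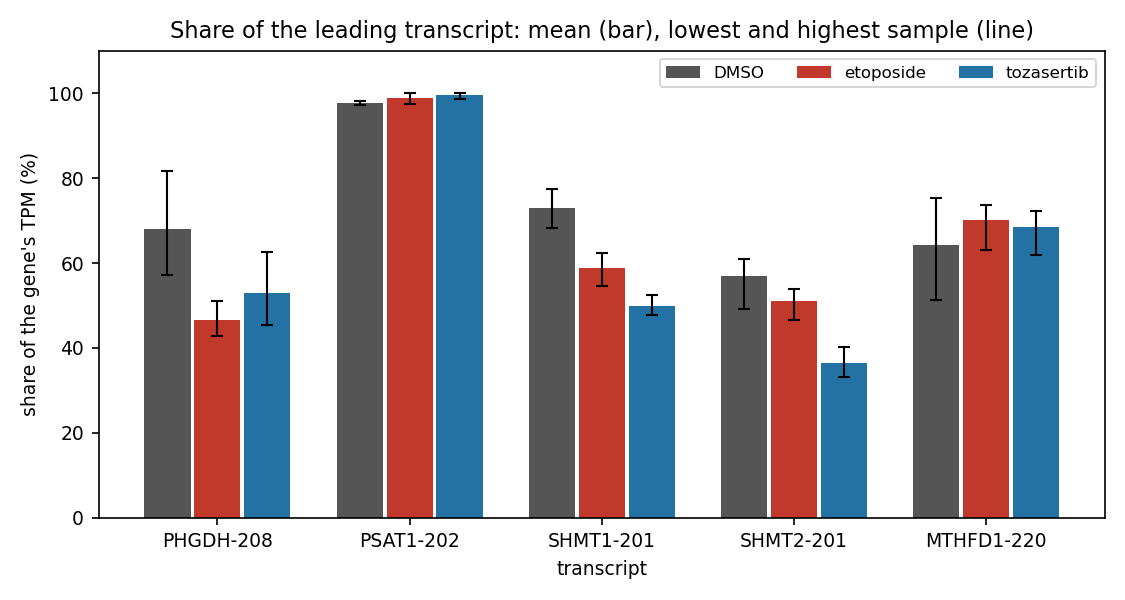
Share of the gene's TPM (vertical axis, percent) held by the main coding transcript of PHGDH, PSAT1, SHMT1, SHMT2 and MTHFD1 in each group, as the mean (bar) with the lowest and highest sample (line). SHMT1-201 steps from 73.0% in DMSO to 58.9% and 49.8%, and PSAT1-202 stays above 97% in all groups.

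The start regions of the members were searched for 4 kinds of motif on both strands, in the RefSeq promoter table (GRCh38.p14, 250 bases before to 50 after each start, 35116 windows). The table held 11 windows for 7 of the 10 genes, and PSPH, SHMT2 and ALDH1L2 had none. The ATF4 with C/EBP element TGATGNAA stood in windows of MTHFD1L and ASNS and in 3.62% of all windows, the E-box CACGTG, bound by MYC with MAX, in those of MTHFD1L and MTHFD1 and in 7.26% of all windows, the antioxidant response element TGACNNNGC in that of MTHFD2 and in 13.3%, and the E2F forms TTTGGCGC, TTTCGCGC and TTTCCCGC in none of the 11 and in 2.74%. The windows of PHGDH, PSAT1 and SHMT1, the genes with the largest falls, held none of these letters. The matches are printed to show where they lie, with the motif in capitals (for MTHFD2 on the opposite strand), each read 5′ to 3′ on the strand of its gene. The 3 MTHFD1L windows that hold matches overlap and share the same pair of sites.
ASNS ATF4 with C/EBP, chr7:97872458-97872487, minus strand: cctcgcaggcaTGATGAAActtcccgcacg
MTHFD1L ATF4 with C/EBP, chr6:150866346-150866375, plus strand: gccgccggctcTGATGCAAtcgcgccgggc
MTHFD1L E-box, chr6:150866320-150866349, plus strand: cacgcccggctcCACGTGcgcagccggccg
MTHFD1 E-box, chr14:64388326-64388355, plus strand: ccagtccctaagCACGTGggttgggttgtc
MTHFD2 antioxidant response element, chr2:74198611-74198639, plus strand: ttccctcccgGCGCAGTCAccggcgcggt
MTHFD1L, with both an ATF4 with C/EBP match and an E-box, did not pass the test with either drug. ASNS and MTHFD1, with 1 of these matches each, were called lower. Whether matches bear on the change of any gene here was not tested. A match is a description of the letters and does not show binding.

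The regulators known for serine synthesis did not move one way. ATF4, the activator of amino acid synthesis genes, was read at 311 ± 21.9 CPM in DMSO, at 192 ± 1.75 CPM with etoposide (log2 fold change -0.70, SE 0.05, edgeR adjusted p = 1.55e-07) and at 217 ± 4.04 CPM with tozasertib (-0.52, SE 0.06, adjusted p = 6.32e-06). MYC fell by 0.95 (SE 0.18) and 0.63 (SE 0.19) on the log2 scale, SOX2 by 1.20 (SE 0.13) and 1.13 (SE 0.15), and the histone modifiers KDM4C by 0.53 and 0.40 and EHMT2 by 0.23 and 0.21, all called. MDM2, a ubiquitin ligase, rose by 1.38 and 1.82. NFE2L2, which encodes NRF2, was at -0.05 with etoposide and rose by 0.16 with tozasertib, and MYCN was at or near 0 reads. These are RNA levels, and the activity of the proteins was not measured.

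The wider response to amino acid shortage was mixed. Of 31 genes listed for ATF4 and the amino acid response, 9 were higher and 17 lower with etoposide, and 9 higher and 14 lower with tozasertib. The shares over all genes were 27.7% higher and 30.7% lower in the etoposide comparison, and 29.9% and 29.4% in the tozasertib comparison, so the 9 of 31 called higher were near that share. STC2, a secreted glycoprotein, rose from 283 ± 26.5 CPM to 1106 ± 21.1 and 1418 ± 35.6 CPM, SESN2, a leucine sensor, had log2 fold changes of 1.16 and 1.31, and ATF3, a stress-induced factor, of 2.21 and 2.24. VLDLR, a lipoprotein receptor, fell by 1.78 and 1.58 on the log2 scale. NUPR1, among the genes called higher, reached the cutoff in no DMSO sample. Some members of this list (ATF4, SLC38A2, SLC6A9, SLC1A4, SLC1A5 and CTH) are in other lists here as well.

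The other genes of the pathway went both ways, and their counts are to be read against the 30.7% and 29.4% of all genes that were lower and the 27.7% and 29.9% that were higher with etoposide and tozasertib. Of 14 tested genes of the folate cycle and folate carriers, 8 were lower and 2 higher with each drug. GGH, which trims folate polyglutamates, fell by 1.26 and 1.52 on the log2 scale, and TYMS, which makes thymidylate, by 0.97 and 1.38. Of 15 genes listed for purine synthesis, HPRT1 and APRT of purine salvage among them, 9 were lower and 2 higher with etoposide. With tozasertib 10 were lower and 2 higher. PAICS went from 244 ± 17.4 CPM to 112 ± 7.62 and 98 ± 1.83 CPM, and HPRT1, GMPS and PRPS2 had log2 fold changes of -1.30 and -1.49, -0.84 and -0.97, and -0.60 and -0.85.

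Of 16 tested genes of serine transport and use, 9 were lower and 4 higher with etoposide and 7 lower and 4 higher with tozasertib. The carriers SLC38A2 (log2 fold change -1.04 and -0.74) and SLC1A5 (-0.55 and -0.81) fell, whereas SDSL, related to the serine-degrading enzymes, rose by 2.06 and 1.85 and SPTLC3, a subunit of the enzyme that starts sphingolipid synthesis from serine, by 1.4 and 0.73. Of 8 tested genes of glycine cleavage and synthesis, 3 were lower and 2 higher with each drug, near the shares over all genes, with the glycine carrier SLC6A9 at -0.63 and -0.49 and GCAT, which handles glycine made from threonine, at -0.71 and -1.32, both called. Of 12 tested genes of the methionine cycle and transsulfuration, 4 were lower and 3 higher with etoposide and 5 lower and 2 higher with tozasertib. AMD1, of polyamine synthesis, fell by 0.68 and 0.88, and NNMT, which spends methyl groups on nicotinamide, rose by 1.24 and 0.96. The counts of genes called higher in these lists are small and moved by up to 2 genes between settings, without etoposide replicate 2 (2 genes of serine transport and use higher with etoposide), DMSO replicate 1 (4 genes of purine synthesis) and tozasertib replicate 1 (0 genes of purine synthesis higher with tozasertib) among them. Counts of genes called lower moved as well: with protein-coding transcripts alone, 4 genes of serine transport and use were lower with either drug, and with library size alone 3 genes of the methionine cycle and transsulfuration were lower with tozasertib.

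**Figure D5:**
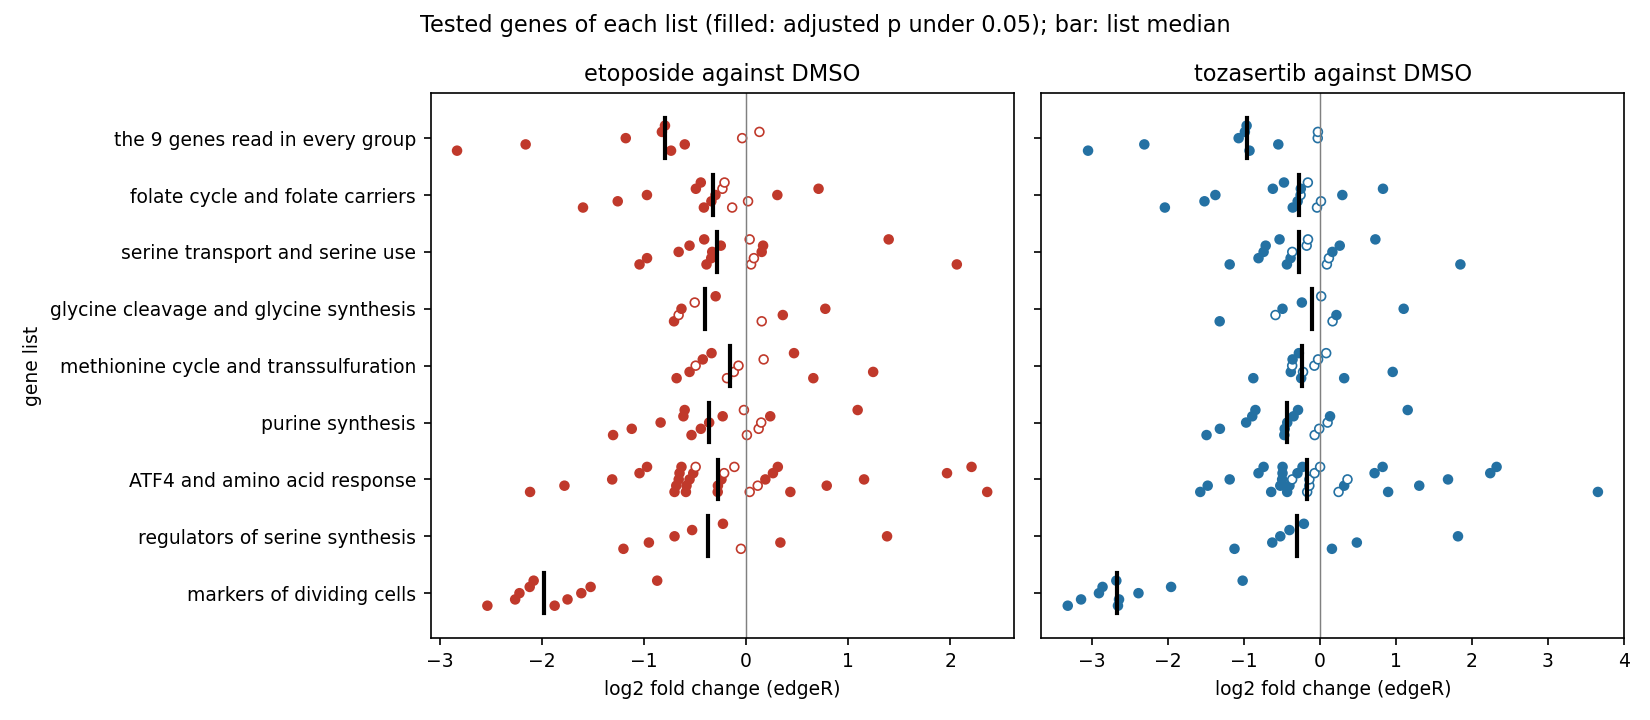
Log2 fold change (horizontal axis) with etoposide (left panel) and tozasertib (right panel) for the 9 genes read in every group and for the tested genes of each list (points, filled where the adjusted p was under 0.05), with the list median (black bar). The 10 markers of dividing cells all lie below 0, and the lists of the pathway spread to both sides of it.

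Markers of dividing cells moved with the same contrast. All 10 (MKI67, TOP2A, CCNB1, CCNA2, CDK1, BUB1, PLK1, MCM2, PCNA and RRM2) were lower with each drug, with median log2 fold changes of -1.98 with etoposide and -2.67 with tozasertib, and their summed level went from 1765 to 1803 CPM in DMSO to 456 to 574 CPM and 313 to 383 CPM. Between the drugs 9 of the 10 were lower with tozasertib. Of the 9 genes read in every group 0 were called, against 5.45% of all genes called lower. As said above, a missed threshold does not show that these genes were unchanged between the drugs. The part of dividing cells in the result was not tested. The 6 fibroblast markers summed to 49.5 to 58.3 CPM in DMSO, 154 to 170 CPM with etoposide and 135 to 140 CPM with tozasertib. LUM and COL1A1 rose, TWIST2 fell by 0.55 and 0.64 on the log2 scale, PDGFRA reached the cutoff only in drug samples, COL1A2 did not pass the test and DCN was near 0. The 6 immune markers summed to 56.3 to 68.8 CPM in DMSO, 35.3 to 42.5 CPM with etoposide and 43.5 to 48.4 CPM with tozasertib. Nearly all of this was CD68. Of the 3 tested (CD68, CD14 and LYZ), 2 were lower with etoposide and 3 with tozasertib, while PTPRC, CD3E and MS4A1 were at or near 0. CD14 reached the cutoff in 3 of 4 DMSO samples and in no drug sample. It entered the test only through DMSO, so its part in these counts is a description. The 5 keratinocyte markers summed to 48.1 to 68.0 CPM, 55.8 to 58.4 CPM and 50.2 to 59.0 CPM, most of it KRT10, with KRT17 higher and KRT14 lower with each drug and KRT5 and KRT1 at or near 0. Counts of markers called lower are to be read against the 30.7% and 29.4% of all genes that were lower with etoposide and tozasertib. For markers called higher, the shares of all genes were 27.7% and 29.9%. The part of these shifts in the result was not tested.

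The protein-coding genes whose log2 CPM followed PHGDH most closely over the 11 samples, among 10804 genes at a mean of 5 CPM or more, were RTN3, RFC5, HMGB1, RBBP7 and EMP2 (Pearson r 0.998 for each, with log2 fold changes from -0.93 to -2.30 with etoposide). For MTHFD2 they were CPNE2, TM4SF1, CDCA4, HMGN2 and PLP2 (r 0.996 to 0.998), and for ASNS they were RGS20, ZDHHC13, EED, IFNAR2 and TRMT2B (r 0.966 to 0.983). The 11 points are 3 groups, so a high r mainly says that 2 genes share the step between DMSO and the drugs, and no other member was among the 5 genes nearest to PHGDH, MTHFD2 or ASNS.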

How the data were processed

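RNA of 11 SK-MEL103 samples was sequenced by the authors after poly(A) enrichment with a strand-preserving kit. The deposited tables hold, for each transcript, the estimated count of reads, TPM and effective length that the authors obtained with Salmon 1.9.0, per the submitters' processing notes, which also name cutadapt 4.7, GRCh38, R 4.4.2 and DESeq2 1.40.2; the annotation release is not given in the sources used here. GENCODE 44 was used to assign transcripts to genes, and 437 of 251645 stayed without a match (0.136 to 0.163% of reads). Estimated counts were summed per gene, rounded and tested with edgeR 4.0.16 (R 4.3.3): trimmed-mean scaling, filterByExpr with its minimum count of 10, 1 quasi-likelihood fit over all samples, and Benjamini-Hochberg adjustment over 17039 genes. Intervals of 95% used the SE with 8 residual degrees of freedom. Levels in CPM and TPM are means ± SD.

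Ratios were compared with exact two-sided permutation tests. The procedure was tested on simulated data. Reads without molecular identifiers are not independent molecules. The members and gene lists were chosen with earlier results of these data known. Genes named from each list are the up to 4 with the smallest adjusted p against DMSO, with all regulators, the 5 genes most like PHGDH, MTHFD2 and ASNS, and pseudogenes with reads; some genes that this rule names are not reported here. Alternatives were DESeq2 1.42.0, other size factors, library size alone, no filter, length-scaled counts, fits of 2 groups, a replicate block, protein-coding transcripts alone, added pseudogene reads and each sample left out. Tozasertib replicate 3 was not analysed here. Deviations of same-numbered samples correlated at -0.097 to 0.051 between DMSO and drug samples and at 0.23, 0.091 and 0.12 between the drugs; 1 of these 3 pairs was under the 0.1 set for pairing, so the numbers were not used as pairs.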

Additional observations from a re-analysis of the deposited data

Results flagged for a closer look

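PSAT1 in etoposide replicate 1 was read at 36.2 CPM, apart from the 40.5 to 41.0 CPM of the other etoposide samples. Its gap to the nearest sample was 0.898 of the range of the group, above the critical value of Dixon's test for 4 samples (0.829). The test was run on 20 groups of 4 samples, and chance gives about 1 such group in 20. Without this sample PSAT1 was still called lower with etoposide.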

How the results depend on the processing

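The 7 genes called lower with etoposide and with tozasertib against DMSO kept that direction and passed the threshold in all 20 alternative settings. PHGDH ranged from -2.89 to -2.52 on the log2 scale with etoposide and from -3.12 to -2.92 with tozasertib, and the highest adjusted p of the 7 genes over these settings was 0.0028 (ASNS with tozasertib). With the replicate block, 7 of the 9 genes read in every group were lower and 0 higher with each drug against DMSO. Between the drugs 0 were called, where the calls over all genes went to 834 higher and 785 lower. Tozasertib replicate 4 correlated better with etoposide replicate 3 (0.16) than with its own number (0.12). With protein-coding transcripts only, PSPH was called higher with etoposide. ALDH1L2 entered the test only through the drug groups, so its calls are a description. Its etoposide call was lost with no filter on low counts, with length-scaled counts, with DESeq2, and without DMSO replicate 1 or etoposide replicate 2. With 2 groups compared only, ALDH1L2 was not among the genes tested for etoposide. Its tozasertib call was lost with length-scaled counts. Genes called lower with tozasertib against etoposide went from 0 to 1 with DESeq2 size factors in edgeR (MTHFD1), length-scaled counts (PHGDH, -0.40, adjusted p = 0.0406) and DESeq2 (MTHFD1), to 2 with 2 groups compared only (SHMT2 and MTHFD1), and ranged from 0 to 2 with 1 sample left out (2 without DMSO replicate 1). In TPM in place of CPM, the difference between the drugs was 0.14 (adjusted p = 0.161) for MTHFD1L to MTHFD1 and -0.48 (adjusted p = 0.11) for MTHFD2 to MTHFD2L. The causes were not tested. Over all genes, calls between the drugs (966 higher, 929 lower) were 603 and 521 with length-scaled counts, 1785 and 1767 with 2 groups compared only, 1021 and 1488 with DESeq2, 1545 and 1854 without DMSO replicate 1, and 565 and 471 without tozasertib replicate 1. Library size alone moved the median of all genes with tozasertib from 0.02 to 0.11. For the ratios, leaving out an etoposide sample kept all 6 differences from DMSO past the threshold (adjusted p = 0.0429). Leaving out a DMSO sample took the etoposide differences of all 3 ratios to an adjusted p of 0.0514. The called differences between the drugs went to the same value. Each was still at the smallest exact p of its design (0.0286). SHMT2 to SHMT1 between the drugs could also pass there and did not (exact test, adjusted p = 0.829). The remaining comparisons with a sample left out could not pass and are values without a test. Over all left-out samples, SHMT2 to SHMT1 differed from DMSO by 1.36 to 1.51 (etoposide) and 1.29 to 1.48 (tozasertib), MTHFD1L to MTHFD1 by 0.72 to 0.80 with etoposide, and MTHFD2 to MTHFD2L by -0.42 to -0.34 with etoposide. Between the drugs the ranges were 0.17 to 0.20 for MTHFD1L to MTHFD1 and -0.60 to -0.54 for MTHFD2 to MTHFD2L. ALDH1L2 rests on 4 to 7 reads per DMSO sample.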
